A study of Homo sapiens with 4 samples.

Results

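The 29 genes described here make cholesterol, move it into or out of the cell, or set the activity of SREBP2, the transcription factor that governs that supply. They were chosen by symbol from the 56303 genes of a deposited count table, and all 29 were present. The table comes from a search for genes downstream of the circular RNA hsa_circ_0008399 in human bladder cancer cells. There are 4 groups of 1 library each, namely T24T cells given the circular RNA (T24T circ), T24T cells given the vector alone (T24T vector), EJ cells given the circular RNA (EJ circ) and EJ cells given the vector alone (EJ vector). Both lines are urothelial carcinoma lines. Cell line registers list EJ as a derivative of T24, and T24T is a more tumorigenic variant of T24, so the lines are related by descent. Time after transfection, the serum or lipid content of the medium and the number of cultures behind a library are not given in the sources used here. The circular RNA itself has no value, since the tables hold 1 value per gene.

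Cholesterol is built from acetyl-CoA by way of mevalonate, isoprenoid units, squalene and lanosterol, mostly by enzymes of the endoplasmic reticulum. When the sterol content of that membrane is low, the escort protein SCAP carries SREBP2 to the Golgi, where proteases release a fragment that enters the nucleus and switches on the genes of synthesis and uptake. When sterol is plentiful, the INSIG proteins hold SCAP back in the endoplasmic reticulum and those genes are transcribed less. Most genes of the pathway share this control, which often works through a sterol regulatory element beside a binding site for the CCAAT factor NF-Y.

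Total counts lay between 14703455 and 18057768 per library. Summed counts of 12 epithelial markers ran from 13950 to 33607 per library and those of 6 leukocyte markers from 1 to 2, with 5 of those 6 at 0 throughout. KRT7, KRT8 and KRT18 were abundant, with 2164 to 14341 counts per library, whereas the urothelial and epithelial markers GATA3 (0 to 1 count), CDH1 (0 to 3) and KRT5 (0) were at or near 0. The 4 mesenchymal markers summed to 23661 counts in T24T circ against 35500 in T24T vector, and to 13722 in EJ circ against 15914 in EJ vector. Some markers moved with the circular RNA in the edgeR test described next: KRT7 rose (0.37, adjusted p = 0.00214), the fibronectin gene FN1 fell (-0.73, 7.44e-07) and the hepatocyte-list gene SERPINA1 fell (-0.81, 7.13e-04), while VIM, CDH2 and ZEB1 did not pass and the other hepatocyte markers ALB, CYP3A4 and TF had 0 to 4 counts. The part of these differences in the sterol results was not tested. Mitochondrially encoded genes took 3.08% of counts in T24T circ and 5.05% in T24T vector, and 4.01% in EJ circ and 5.40% in EJ vector. In a fit without the mitochondrial genes 21 sterol genes fell, the same number as with them. Whether the mitochondrial share and the sterol falls are linked was not tested. The effect of the circular RNA was tested across both lines with the edgeR quasi-likelihood test on counts, with cell line as a block and Benjamini-Hochberg adjustment over 17689 genes at 0.05. Fold changes are log2 values, each ± is the standard error of that fit (n = 2 lines), and 1 residual degree of freedom means that the error is largely pooled over genes. Within a line there is 1 library per arm, so values there carry only a 95% counting interval (exact binomial), which leaves out the variation between cultures.

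The sterol genes were lower in circ cells along nearly the whole pathway. Of 29 genes, 27 had enough counts to be tested, 21 fell, 1 rose and 5 did not pass the test. Among all tested genes 5.56% fell and 7.13% rose, and among those with a mean of 100 or more counts 7.99% fell. The median log2 fold change of the 27 genes was -0.52, against 0.0018 over all tested genes. The circ to vector ratio was below 1 in both lines for 25 of the 27, where 32.3% of tested genes were. The remaining pair, PMVK and GGPS1, had ratios above 1 in both lines. These genes were picked out with earlier results of the same libraries known, so the counts describe the pathway and are not independent evidence of its direction. DESeq2 called 15 falls and no rise among the 27. Over all 17689 tested genes it called 0.882% as falls and 1.05% as rises. It gave 11317 of those genes no adjusted p, so the shares among genes it could call were higher. Of the genes that fell in edgeR, DESeq2 did not call MVK, NSDHL, NPC1 and SREBF2 (DESeq2 adjusted p from 0.132 to 0.298) and gave MSMO1 and HSD17B7 no adjusted p. TM7SF2, INSIG2 and SCAP, which did not pass in edgeR, also had no adjusted p from DESeq2. Limma on log2(RPKM + 1) and edgeR without the line block called 0 genes of any kind at the adjusted threshold. At an unadjusted p under 0.05, limma on log2(RPKM + 1) picked 22 of the sterol genes and 3588 of all 17689 tested genes. The edgeR fit without the block picked 11 of the sterol genes and 397 of all tested genes.

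**Figure D1:**
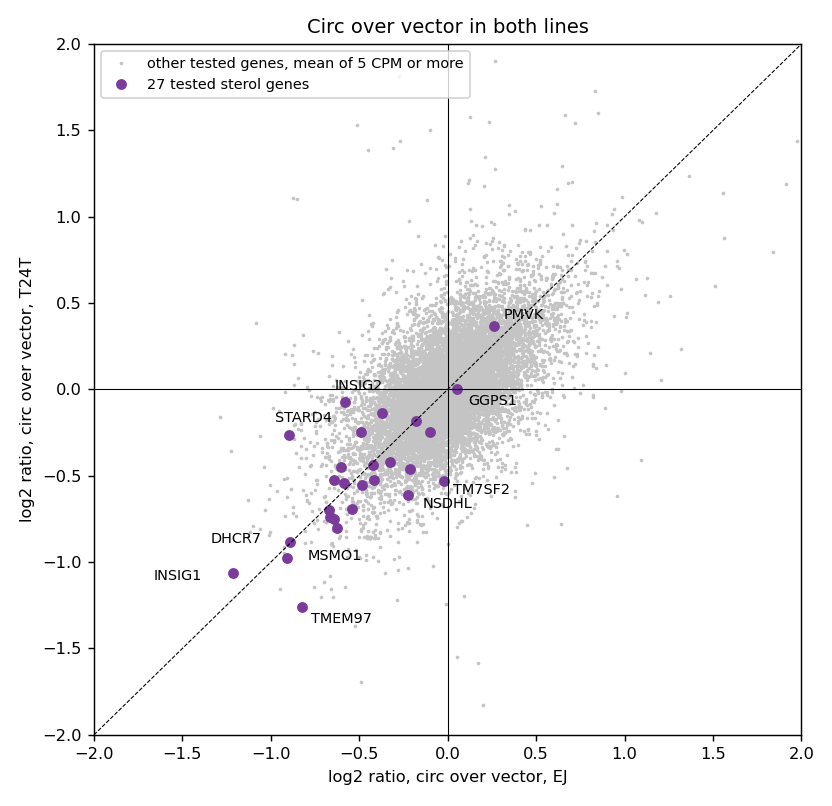
Log2 ratio of circ over vector in EJ (horizontal axis) and in T24T (vertical axis), 1 point per gene, with the 27 tested sterol genes in purple, other genes with a mean of 5 CPM or more in grey (11496 drawn, 4 outside the axes) and equality as a dashed line. All but PMVK and GGPS1 of the purple points lie to the lower left of both zero lines.

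Because the genes moved together, the DNA before their start sites was read. RefSeq promoter windows (GRCh38.p14, 250 bases before to 50 after a start site) were at hand for 26 of the 29 genes. The letters CCAAT, the core of the NF-Y site, stood on 1 strand or the other in 19 of the 26 (73.1%), against 39.7% of 27305 genes. At least 2 of them in 1 window were found for 13 genes (50%), against 12.9% of all genes. Of the genes that fell, 16 of the 18 with a window had a CCAAT, the exceptions being CYP51A1 and NPC1. Of the 5 genes that did not pass, GGPS1 and TM7SF2 had it and LBR, INSIG2 and SCAP did not. PMVK, the gene that rose, had none. The same split was not made over all tested genes, and a link between the motif and the falls was not tested. The sterol regulatory element written as TCACNCCAC was found in SREBF2 alone (1 of 26, against 1.39% of all genes). It lay 133 bases before the start site. Only this spelling within the windows was searched, so other forms or positions of the element would be missed. The GC box GGGCGG was present in 24 of 26 (92.3%, against 48.3%) and the E-box CACGTG in 5 (19.2%, against 8.78%). None of these motifs contains another, all were searched on both strands, and a match describes letters and not a bound site. The shares over all genes take every gene with a window, tested here or not, and were not matched for expression or base content. The 250 bases upstream of the start site are printed for the 4 genes with the largest falls, for SREBF2, which codes for the controlling factor, and for PMVK, which went the other way. In the authors' gene models (hg38) INSIG1 spans chr7:155297776-155310235, TMEM97 chr17:28319095-28328685, DHCR7 chr11:71428193-71452868, MSMO1 chr4:165327623-165343160, SREBF2 chr22:41833079-41907308 and PMVK chr1:154924734-154936991. Capitals mark CCAAT or its complement ATTGG and, in SREBF2, the sterol regulatory element.
INSIG1 (chr7:155297628-155297877, plus strand): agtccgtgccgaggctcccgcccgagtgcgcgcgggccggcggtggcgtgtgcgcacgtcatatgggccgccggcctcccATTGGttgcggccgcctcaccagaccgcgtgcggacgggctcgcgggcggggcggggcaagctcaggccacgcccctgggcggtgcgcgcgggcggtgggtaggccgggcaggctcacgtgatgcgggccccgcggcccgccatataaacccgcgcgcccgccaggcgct
TMEM97 (chr17:28318950-28319199, plus strand): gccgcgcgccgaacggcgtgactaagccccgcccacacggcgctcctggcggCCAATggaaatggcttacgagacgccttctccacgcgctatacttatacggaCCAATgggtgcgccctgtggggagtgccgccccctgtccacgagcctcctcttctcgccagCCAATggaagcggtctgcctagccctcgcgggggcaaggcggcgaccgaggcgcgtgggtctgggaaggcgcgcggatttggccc
DHCR7 (chr11:71448394-71448643, minus strand): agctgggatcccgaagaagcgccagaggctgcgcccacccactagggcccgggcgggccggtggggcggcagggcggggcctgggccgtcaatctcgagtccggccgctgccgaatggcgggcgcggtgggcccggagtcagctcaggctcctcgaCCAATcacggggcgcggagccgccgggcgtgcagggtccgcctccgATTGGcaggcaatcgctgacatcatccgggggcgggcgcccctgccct
MSMO1 (chr4:165327419-165327668, plus strand): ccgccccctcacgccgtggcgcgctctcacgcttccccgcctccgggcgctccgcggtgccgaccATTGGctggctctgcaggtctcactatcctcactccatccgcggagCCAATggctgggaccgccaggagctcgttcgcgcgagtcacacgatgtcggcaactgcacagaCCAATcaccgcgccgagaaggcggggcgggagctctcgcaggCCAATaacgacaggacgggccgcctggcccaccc
SREBF2 (chr22:41832855-41833104, plus strand): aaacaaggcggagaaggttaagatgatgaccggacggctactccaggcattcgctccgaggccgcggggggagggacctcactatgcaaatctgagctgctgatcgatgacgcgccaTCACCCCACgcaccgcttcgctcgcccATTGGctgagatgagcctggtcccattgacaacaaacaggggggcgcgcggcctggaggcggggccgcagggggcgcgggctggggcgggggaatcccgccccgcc
PMVK (chr1:154936720-154936969, minus strand): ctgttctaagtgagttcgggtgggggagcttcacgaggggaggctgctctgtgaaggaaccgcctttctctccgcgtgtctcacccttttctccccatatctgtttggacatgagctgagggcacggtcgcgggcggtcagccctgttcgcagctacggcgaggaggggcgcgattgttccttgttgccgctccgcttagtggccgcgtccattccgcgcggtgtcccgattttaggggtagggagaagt
MSMO1 shows 4 of the marked boxes, TMEM97 3 and DHCR7 2 at the start site shown (a second annotated DHCR7 start site has none), while INSIG1 and SREBF2 show 1 each.

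In the first stage, from acetyl-CoA to the isoprenoids, 6 of 8 genes fell, PMVK rose and GGPS1 did not pass. ACAT2, which joins acetyl-CoA units, had 38.5 RPKM in T24T circ against 68.4 in T24T vector, and 43.4 in EJ circ against 67.4 in EJ vector. RPKM is the deposited count per kilobase of gene, scaled by the authors to the total count of the library. The fall of ACAT2 was -0.72 ± 0.08 (edgeR adjusted p = 4.56e-07). HMGCS1, which makes the HMG-CoA from which mevalonate is formed, had 28.4 RPKM in T24T circ against 39.5 in T24T vector and 32.1 in EJ circ against 49.1 in EJ vector (-0.53 ± 0.08, edgeR adjusted p = 5.43e-05). Both genes stood lower in circ cells than in vector cells of either line, with no overlap between arms.

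The mevalonate kinase gene MVK fell by 0.37 on the log2 scale (± 0.11, edgeR adjusted p = 0.0165), with 3.68 RPKM in T24T circ against 4.44 in T24T vector and 5.01 in EJ circ against 7.09 in EJ vector. DESeq2 did not call it (adjusted p = 0.256). PMVK, whose product phosphorylates mevalonate a second time, ran counter to its neighbours. It had 47.3 RPKM in T24T circ against 37.3 in T24T vector and 48.3 in EJ circ against 40.5 in EJ vector, a rise of 0.32 ± 0.09 (edgeR adjusted p = 0.0193) that DESeq2 did not call. MVD, which decarboxylates the product to the first isoprenoid unit, fell to 29.3 RPKM in T24T circ, against 48.2 in T24T vector, and to 26.7 in EJ circ, against 42.8 in EJ vector (-0.69 ± 0.08). PMVK thus lay between 2 steps whose transcripts fell, and its 2 ratios, 129% of vector in T24T (117.7% to 141.5%) and 120% in EJ (109% to 132%), were both above 100%.

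IDI1, the isomerase of the isoprenoid units, had 9.80 RPKM in T24T circ against 14.6 in T24T vector and 13.6 in EJ circ against 19.1 in EJ vector (-0.52 ± 0.09). FDPS makes farnesyl diphosphate, the branch point between sterols and other isoprenoids, and had the highest level of the set. Its RPKM was 76.1 in T24T circ against 111 in T24T vector, and 73.9 in EJ circ against 116 in EJ vector (-0.58 ± 0.08, edgeR adjusted p = 7.59e-06). GGPS1 draws farnesyl diphosphate off into geranylgeranyl diphosphate for protein prenylation, away from sterols. Its transcript stood at 6.09 RPKM in T24T circ against 6.18 in T24T vector and at 7.46 in EJ circ against 7.24 in EJ vector (0.03 ± 0.11, edgeR adjusted p = 0.909). The counting intervals allow 87.1% to 115% of vector in T24T and 90.5% to 119% in EJ.

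**Figure D2:**
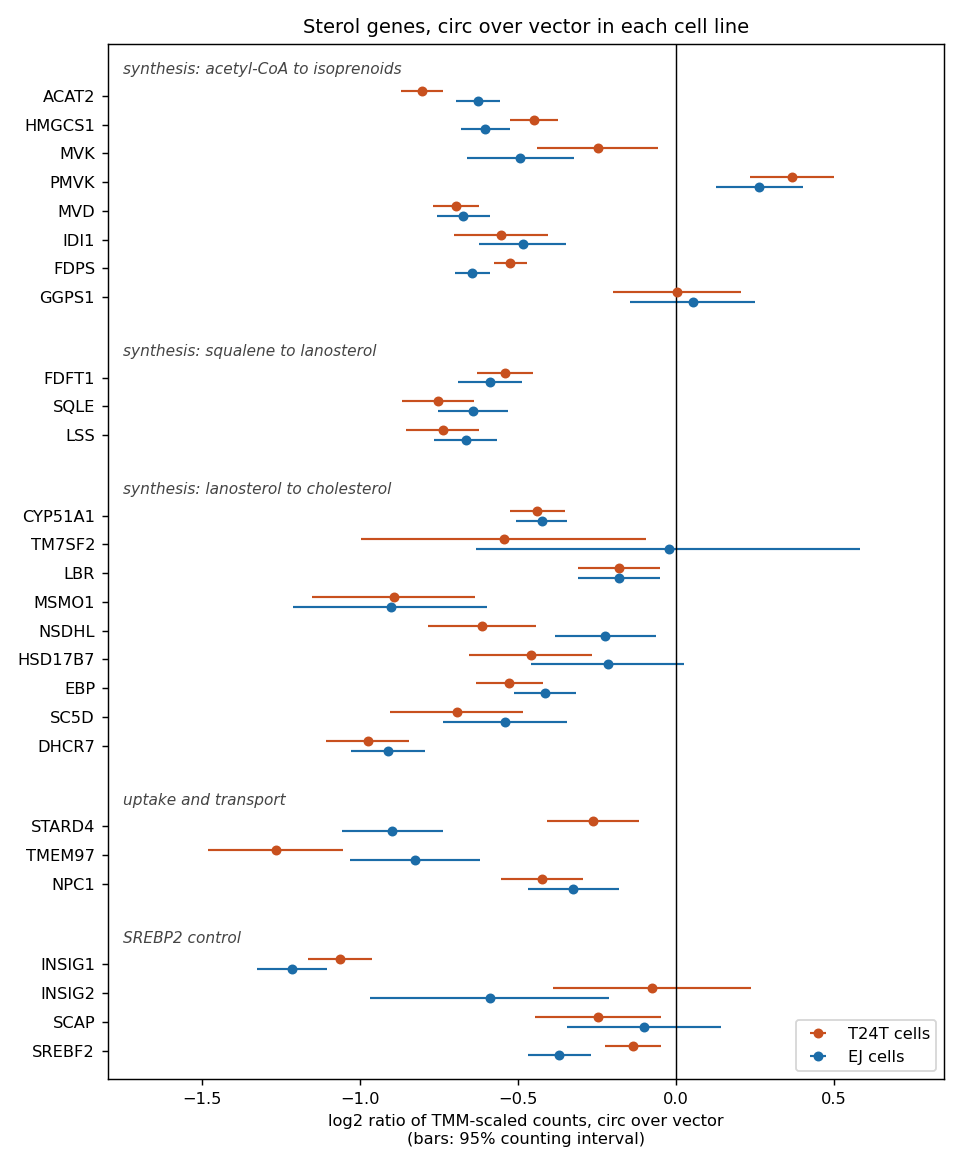
Log2 ratio of circ over vector for the 27 tested sterol genes in pathway order, T24T in orange above EJ in blue, with 95% counting intervals that leave out culture variation. The points farthest to the left are TMEM97, INSIG1 and DHCR7 in T24T and INSIG1, DHCR7 and MSMO1 in EJ, with STARD4 close to MSMO1. PMVK lies to the right of 0 in both lines, and the TM7SF2 interval in EJ is the widest.

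All 3 genes that lead through squalene to lanosterol fell. The squalene synthase gene FDFT1 commits farnesyl diphosphate to sterols and had 19.1 RPKM in T24T circ against 28.3 in T24T vector, and 17.1 in EJ circ against 25.9 in EJ vector. SQLE, the squalene epoxidase gene and a rate-limiting step, had 13.0 RPKM in T24T circ against 22.2 in T24T vector, and 16.7 in EJ circ against 26.2 in EJ vector. LSS closes the ring to lanosterol and had 7.75 RPKM in T24T circ against 13.2 in T24T vector, and 12.5 in EJ circ against 19.97 in EJ vector. Log2 fold changes were -0.57 ± 0.08 for FDFT1, -0.70 ± 0.09 for SQLE and -0.70 ± 0.08 for LSS (edgeR adjusted p of 1.79e-05, 1.10e-06 and 7.25e-07). DESeq2 called all 3. For LSS, the EJ circ level of 12.5 RPKM lay close below the T24T vector level of 13.2.

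Of the 9 genes that turn lanosterol into cholesterol, 7 fell and 2 did not pass. DHCR7, the reductase of the last step, fell most in this stage. It had 731 counts in T24T circ against 1365 in T24T vector and 900 in EJ circ against 1812 in EJ vector, which was 50.8% of vector in T24T (46.4% to 55.7%) and 53.1% in EJ (49.0% to 57.6%). MSMO1, which begins removal of the methyl groups at carbon C4, had 197 counts in T24T circ against 347 in T24T vector and 133 in EJ circ against 266 in EJ vector (-0.90 ± 0.13, edgeR adjusted p = 2.10e-05). Its TMM-scaled level was 53.9% of vector in T24T and 53.5% in EJ, so the 2 lines gave nearly the same value.

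CYP51A1, the demethylase that starts this stage, fell by 0.43 ± 0.08 on the log2 scale, to 25.9 RPKM in T24T circ, against 35.7 in T24T vector, and to 35.7 in EJ circ, against 48.2 in EJ vector. Its count cannot be told apart from that of LRRD1, which shares 78.8% of its exon bases on the same strand. NSDHL, the C4 decarboxylase, had 13.3 RPKM in T24T circ against 20.7 in T24T vector and 19.7 in EJ circ against 23.2 in EJ vector (-0.42 ± 0.11), and DESeq2 did not call it (adjusted p = 0.169). HSD17B7, the keto-reductase beside it, passed narrowly (-0.35 ± 0.12, edgeR adjusted p = 0.0449). It lost its call when 50 counts were asked for in each line (edgeR adjusted p = 0.0607, with 0.0207 to 1 over all alternatives). Reads of its pseudogene HSD17B7P2, which amounted to 24.8% of the HSD17B7 count, may be split with it. The isomerase gene EBP fell by 0.47 ± 0.08 and the desaturase gene SC5D by 0.62 ± 0.11 on the log2 scale (edgeR adjusted p of 2.52e-04 and 2.68e-04).

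TM7SF2 and LBR code for alternative sterol C14 reductases, LBR being also the lamin B receptor of the inner nuclear membrane. Per kilobase LBR was the higher of the pair, with 9.79 RPKM in T24T circ against 11.3 in T24T vector and 11.5 in EJ circ against 13.0 in EJ vector. TM7SF2 had 1.19 RPKM in T24T circ against 1.76 in T24T vector and 0.918 in EJ circ against 0.938 in EJ vector. Their log2 values of -0.18 ± 0.09 for LBR (edgeR adjusted p = 0.200) and -0.33 ± 0.22 for TM7SF2 (0.363) did not pass. With 46 to 101 counts per library, TM7SF2 could have changed in EJ to anywhere between 64.5% and 149.9% of vector by counting error alone. In T24T it stood at 68.6% of vector (50.1% to 93.6%). LBR stood at 88.2% of vector in T24T (80.6% to 96.5%) and at 88.3% in EJ (80.7% to 96.6%).

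Among the 5 genes of uptake and transport, all 3 that could be tested fell. TMEM97 binds NPC1 and is itself sterol-regulated. It had 262 counts in T24T circ against 599 in T24T vector and 299 in EJ circ against 567 in EJ vector (-1.04 ± 0.12, edgeR adjusted p = 2.39e-07). STARD4 carries cholesterol between membranes and had 735 counts in T24T circ against 837 in T24T vector, and 485 in EJ circ against 967 in EJ vector (-0.57 ± 0.11, edgeR adjusted p = 5.91e-04). NPC1, which exports cholesterol from lysosomes, had 4.78 RPKM in T24T circ against 6.52 in T24T vector and 4.65 in EJ circ against 5.86 in EJ vector (-0.38 ± 0.09), and DESeq2 did not call it. TMEM97 was low in both circ libraries, to 41.5% of vector in T24T and 56.4% in EJ, and STARD4 stood at 83.4% of vector in T24T and 53.6% in EJ.

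The remaining 2 transport genes act under the oxysterol receptors LXR, which respond to sterol excess. ABCA1, the cholesterol exporter, had 9 counts in T24T circ and 8 in T24T vector, and 3 in EJ circ and 2 in EJ vector. MYLIP, also called IDOL, marks lipoprotein receptors for degradation and had 0 counts in T24T circ, 5 in T24T vector and 0 in each EJ library. Neither reached the filter, and a difference was not detectable at this depth.

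Of the 4 genes of SREBP2 control, INSIG1 and SREBF2 fell and INSIG2 and SCAP did not pass. INSIG1 is itself a target of SREBP2, and its p-value ranked 4 among the 17689 genes. It had 1192 counts in T24T circ against 2365 in T24T vector and 934 in EJ circ against 2321 in EJ vector. The TMM-scaled level was 47.8% of vector in T24T (44.6% to 51.3%) and 43.0% in EJ (39.9% to 46.5%). INSIG2, the paralogue that is under less SREBP control, had 172 counts in T24T circ and 172 in T24T vector, and 97 in EJ circ and 156 in EJ vector (-0.31 ± 0.16, edgeR adjusted p = 0.232). In T24T its level was 94.9% of vector (76.4% to 118%) and in EJ 66.5% (51.1% to 86.2%), so the counting interval included 100% in T24T and lay below it in EJ.

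SREBF2 codes for SREBP2. It had 14.96 RPKM in T24T circ against 16.7 in T24T vector, and 12.9 in EJ circ against 16.7 in EJ vector. The fall of -0.25 ± 0.09 passed narrowly (edgeR adjusted p = 0.0491), was not called by DESeq2 (adjusted p = 0.298) and lost its call when 50 counts were asked for in each line (edgeR adjusted p = 0.0616). Over all alternatives the adjusted p ran between 0.0238 and 1. SCAP had 3.48 RPKM in T24T circ against 4.20 in T24T vector and 2.84 in EJ circ against 3.07 in EJ vector (-0.18 ± 0.12, edgeR adjusted p = 0.348). The 4 control genes thus spanned -1.14 to -0.18, with INSIG1 apart from the others.

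**Figure D3:**
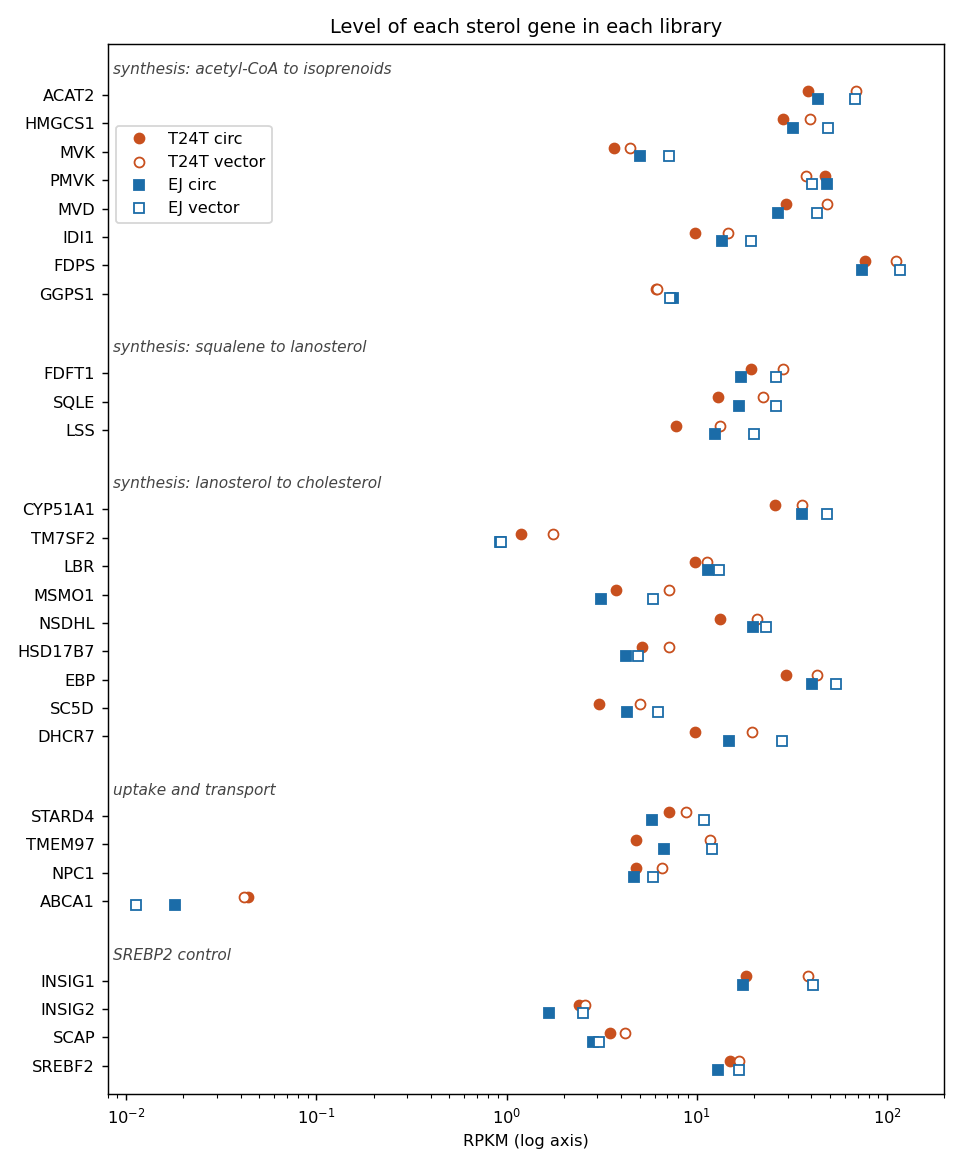
RPKM of each sterol gene (log axis) in the 4 libraries, circ as filled and vector as open symbols, T24T as orange circles and EJ as blue squares; MYLIP, listed at 0 in 3 libraries, is left out. Levels run from under 0.05 for ABCA1 to between 73.9 and 116 for FDPS, and the filled symbol lies left of the open one of its line for most genes.

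Levels per kilobase differed far more between genes than between arms. In T24T vector the highest were FDPS with 111 RPKM, ACAT2 with 68.4 and MVD with 48.2, and the lowest tested gene was TM7SF2 with 1.76. EJ vector gave FDPS with 116, ACAT2 with 67.4 and EBP with 53.9 as the highest and TM7SF2 with 0.938 as the lowest tested gene. Over the 20 synthesis genes together, 14.2 of every 10000 counts in T24T circ fell on them, against 21.3 in T24T vector, and 16.2 in EJ circ, against 23.7 in EJ vector. Circ cells had 0.669 of the vector share in T24T and 0.682 in EJ. The transport genes had 0.686 of it in T24T and 0.639 in EJ, and the control genes 0.694 in T24T and 0.610 in EJ. Bulk libraries do not tell whether fewer cells carried these transcripts or each cell carried less.

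**Figure D4:**
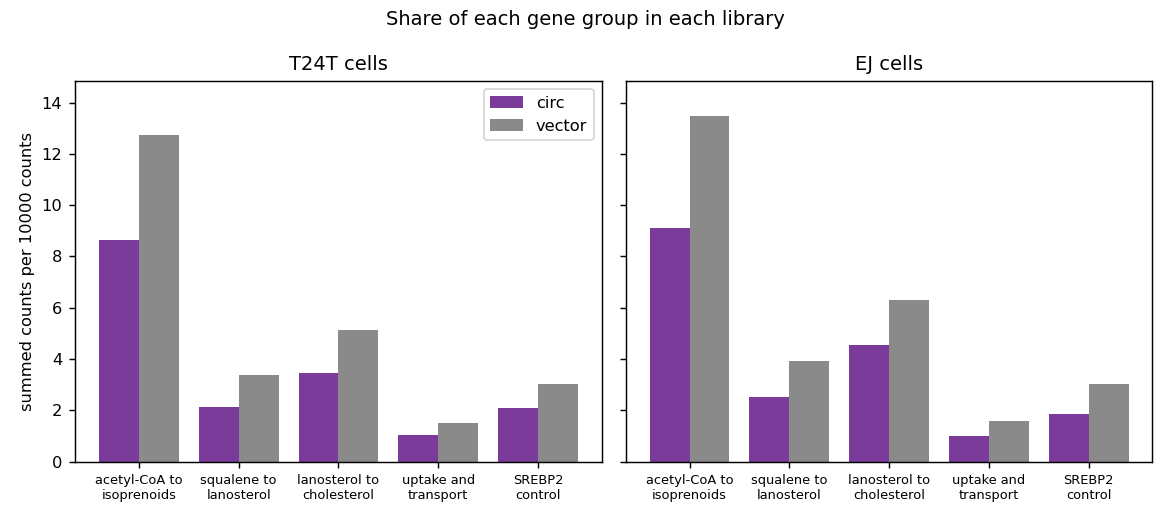
Summed counts of each gene group per 10000 counts of the library, circ (purple) beside vector (grey), in T24T and in EJ, 1 library per bar and so no error bar. Each circ bar is lower than its vector bar, in the synthesis stages by a ratio of 0.625 to 0.722.

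The circ ratios of the 2 lines were set side by side. The T24T log2 ratio minus the EJ log2 ratio was within 0.25 either way for 22 of 27 genes. The median absolute gap was 0.12 and the largest 0.63. This gap was not measured over all tested genes, so closeness particular to the sterol genes is not shown. An interaction cannot be tested with 1 library per line and arm. The counting intervals of T24T and EJ lay apart for 7 of the 27 genes, a larger share than the 9.64% of all tested genes. Such intervals narrow as counts grow, and the 2 shares were not matched for count level. ACAT2 (57.3% of vector in T24T, 64.7% in EJ), NSDHL (65.3% in T24T, 85.7% in EJ) and TMEM97 (41.5% in T24T, 56.4% in EJ) were the lower in T24T. STARD4 (83.4% of vector in T24T, 53.6% in EJ), SREBF2 (90.9% in T24T, 77.4% in EJ), FDPS (69.5% in T24T, 64.0% in EJ) and HMGCS1 (73.2% in T24T, 65.8% in EJ) were the lower in EJ. The HMGCS1 intervals nearly touch, at 69.4% in both lines. At a 1.5-fold limit, 10 genes were lower in T24T circ (6.08% of tested genes) and 12 in EJ circ (6.05%), 8 of them in both lines (1.38%). None reached 1.5-fold higher in either line, where 7.76% of tested genes did in T24T and 7.24% in EJ.

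Setting the lines against each other, 15 of 27 genes passed the edgeR test with transfection as the block, 6 higher and 9 lower in T24T than in EJ. Over all tested genes 21.9% were higher and 19.5% lower in T24T, so differences between the lines were common throughout the table. LSS showed the difference with the smallest p, with 7.75 RPKM in T24T circ against 12.5 in EJ circ and 13.2 in T24T vector against 19.97 in EJ vector (-0.58 ± 0.08, edgeR adjusted p = 1.11e-06). DHCR7 (-0.49 ± 0.09), MVK (-0.50 ± 0.11), CYP51A1 (-0.39 ± 0.08) and IDI1 (-0.36 ± 0.09) were lower in T24T as well. TM7SF2 (0.72 ± 0.22), HSD17B7 (0.48 ± 0.12), SCAP (0.44 ± 0.12) and MSMO1 (0.34 ± 0.13) were higher in T24T. INSIG1 did not pass, with 18.1 RPKM in T24T circ against 17.4 in EJ circ and 38.4 in T24T vector against 40.7 in EJ vector (0.05 ± 0.09, edgeR adjusted p = 0.697). DESeq2 called 4 genes lower in T24T, namely LSS, DHCR7, MVK and CYP51A1, and 0 higher, against 8.08% lower and 10% higher over all tested genes. At an unadjusted p under 0.05, DESeq2 picked 8 of the 27 sterol genes and 4777 of all 17689 tested genes. IDI1 (DESeq2 adjusted p = 0.0864), TM7SF2, HSD17B7, SCAP and MSMO1 were not called by it. MSMO1 (edgeR adjusted p = 0.0434) also lost its call with library size alone (0.102), no filter (0.0819), the length trend removed (0.0825) and mitochondrial genes left out (0.053), within 0.00123 to 0.552 over all alternatives.

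**Figure D5:**
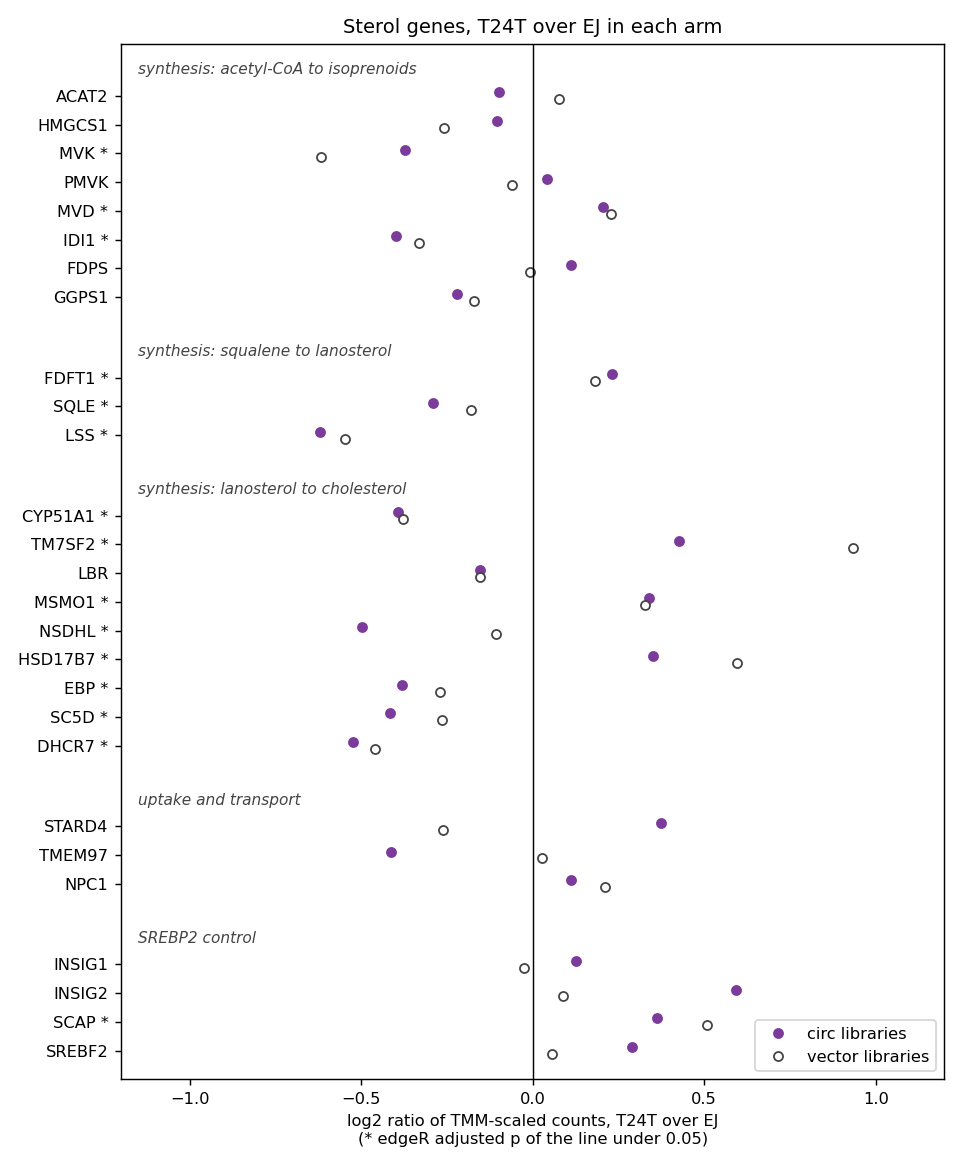
Log2 ratio of T24T over EJ for each tested sterol gene, from the circ libraries (filled) and from the vector libraries (open), with an asterisk after genes that passed the edgeR line test. Genes lie on both sides of 0, with LSS and DHCR7 to the left and TM7SF2 and HSD17B7 to the right in both arms.

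Over 58 further genes of sterol handling in 4 lists, 56 were tested, 10 fell (17.9%, against 5.56% of all tested genes) and 1 rose (1.79%, against 7.13%). The median log2 fold change was -0.03, against 0.0018 over all tested genes. DESeq2 called 2 falls and 1 rise among them, did not call 6 of the 10 that fell in edgeR and gave 2 of these no adjusted p. In the list of SREBP processing and sterol-regulated degradation, 2 of 12 fell and 1 rose. SREBF1, which codes for the sister factor SREBP1, fell by 0.45 on the log2 scale (± 0.10, edgeR adjusted p = 0.00148; DESeq2 adjusted p = 0.0742, not called), and MBTPS1, the Golgi protease that makes the first cut in SREBP, by 0.42 (± 0.08, 8.03e-04). FAF2, which helps extract proteins from the endoplasmic reticulum for degradation, rose by 0.46 ± 0.08 (edgeR adjusted p = 3.11e-04). The list of sterol trafficking, esters and efflux had 5 falls among 22 and no rise. Its largest were those of NPC2 (-0.57 ± 0.11), the lysosomal partner of NPC1, and GRAMD1A (-0.54 ± 0.10), which moves sterol from the plasma membrane to the endoplasmic reticulum. DESeq2 called GRAMD1A (adjusted p = 0.0344) and not NPC2 (0.0645).

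Of 13 genes that use isoprenoids for prenylation, dolichol and ubiquinone, 1 fell (7.69%, against 5.56% of all tested genes) and 0 rose (against 7.13%). The gene that fell was ICMT, which methylates prenylated proteins (-0.36 ± 0.10, edgeR adjusted p = 0.0148), a call that DESeq2 did not make (adjusted p = 0.238). The list's median was 0.15. Among the electron donors and helpers of sterol synthesis, ERG28 fell. This gene, listed under its older symbol C14orf1 and a scaffold of the C4 demethylation complex that holds MSMO1 and NSDHL, had 234 counts in T24T circ against 438 in T24T vector and 241 in EJ circ against 346 in EJ vector (-0.71 ± 0.13, edgeR adjusted p = 3.36e-04). DESeq2 gave it no adjusted p.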

How the data were processed

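RNA sequencing was done on 4 libraries, circ and vector in T24T and EJ cells. Per the submitters' processing notes, Trimmomatic, HISAT2 and the hg38 genome were used. The counting tool, annotation and use of strand are not given in the sources used here, so reads of overlapping genes on opposite strands cannot be told apart. The authors deposited counts for 56303 genes and RPKM for 29817 genes, and 100% of the RPKM values equalled count over length and library total within a relative tolerance of 1e-06. Columns were matched by the sample descriptions, where T24T is written T24.

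Genes with 10 or more counts in a library and 20 or more over the 4 were kept (17689) and scaled by TMM. The tests were run with edgeR 4.0.16, limma 3.58.1 and DESeq2 1.42.0 in R 4.3.3. The edgeR fit had a common biological coefficient of variation of 0.0704 and 30.5 prior degrees of freedom. Libraries of 1 line were blocked because they come from the same cells. Exact permutation of 2 circ against 2 vector libraries cannot go below p = 0.333, so none was run. Within a line, log2 ratios used a prior count of 2. On simulated counts for this comparison with 17689 genes, the fit recovered 81% of 200 genes changed 1.5-fold and 99.5% of 200 changed 2-fold. It made 10 and 9 false calls in these runs, and 0 calls with no gene changed. The simulated counts had the common variation of this fit and the same change in both lines. Only genes with a mean of 100 or more counts were changed. Differences between cultures or in line response were left out, so the error rate on the real libraries is not shown. The genes, the further lists and the tests were chosen with earlier results of these data known. All 29 genes are described. Of the further lists, the rule names SREBF1 and at most 2 rises and 2 falls per list that passed; 1 gene of those lists is not reported here. Replicates are the 2 lines, which leave 1 residual degree of freedom. The edgeR p-values therefore rest largely on error pooled over genes and little on the spread of each gene between these libraries. Intervals cover counting error only.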

Additional observations from a re-analysis of the deposited data

How the results depend on the processing

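The fall of the sterol genes kept its direction in all fits run: 25 of 27 genes were lower in circ under each of the 12 alternatives, and each line alone gave the sign of the joint fit for all 27. The calls were 21 falls and 1 rise with RLE factors, library size alone, no filter, limma-voom, mitochondrial genes left out, the length trend removed and the GC trend removed (the last chosen after seeing the data, with a GC value for 80.9% of tested genes), and 19 falls and 1 rise with 50 counts in each line, where HSD17B7 and SREBF2 lost theirs. DESeq2 called 15 falls and 0 rises, and 156 falls and 185 rises over all genes, with MVK, PMVK, NSDHL, NPC1 and SREBF2 not called and 11317 genes given no adjusted p. Limma on log2(RPKM + 1), limma on log2(RPKM + 0.1) and the edgeR fit with no replicate block (cell line left out) called 0 sterol genes and 0 genes overall in either direction, with 3588, 3713 and 397 genes at an unadjusted p under 0.05, and 22, 22 and 11 of the sterol genes. At 2-fold instead of 1.5-fold, 2 sterol genes were lower in T24T circ and 1 in EJ circ. No share of all tested genes is given at 2-fold, so these counts are not set against a background.

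The comparison of the lines depended more on the setting. Sterol genes higher in T24T numbered 3 with library size alone and with no filter, and 0 with DESeq2, both limma fits on RPKM and no replicate block (transfection left out). Those lower numbered 4 with DESeq2 and 0 with no replicate block. Over all 17689 tested genes, library size alone gave 3392 higher, and no filter gave 3655 higher among 29817 genes. DESeq2 gave 1773 higher and 1430 lower. Limma gave 2492 higher on log2(RPKM + 1) and 2691 higher on log2(RPKM + 0.1). The fit with no replicate block gave 1944 higher and 1248 lower. Genes near 0 changed sign without passing: FDPS (-0.012), STARD4 (-0.022) and INSIG1 (-0.017) with library size alone, FDPS (-0.012), STARD4 (-0.0125) and INSIG1 (-0.014) with limma on log2(RPKM + 1), FDPS (-0.012), STARD4 (-0.0076) and INSIG1 (-0.013) with limma on log2(RPKM + 0.1), ACAT2 (0.013) and PMVK (0.015) with 50 counts in each line, and ACAT2 (0.01) and STARD4 (-0.0075) with no replicate block. The cause of these differences was not tested. Depth limits TM7SF2, INSIG2, ABCA1 and MYLIP most.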

Other observations

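Several sterol genes share exon bases with another gene in the table, and the partners' values are given here because the use of strand is not stated. RUSC1-AS1, which lies on the opposite strand and covers 18.6% of the FDPS exon bases, had 1989 counts in T24T circ against 2964 in T24T vector and 1513 in EJ circ against 2607 in EJ vector, a fall of -0.67 (edgeR adjusted p = 1.27e-06) beside that of FDPS. STARD4-AS1 fell as well (-0.54, edgeR adjusted p = 0.00979), with 124 bases shared with STARD4. LRRD1, on the same strand as CYP51A1, had a log2 fold change of -0.44 against -0.43 for CYP51A1. SOD2, on the opposite strand over 43.0% of the ACAT2 exon bases, had -0.24 (edgeR adjusted p = 0.0704), and its T24T over EJ value of 2.48 was not shared by ACAT2 (-0.01). ARID4B, which shares 138 bases with GGPS1, rose by 0.42 (edgeR adjusted p = 9.28e-04), while GGPS1 had 0.03. IFT20, over 11.9% of the TMEM97 exon bases, had 0.30 (edgeR adjusted p = 0.0627) beside the fall of TMEM97. These partners were named after their values were seen, and how many reads each pair shares was not tested.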
